A study of Mus musculus with 16 samples.

Results

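The 36 genes described here encode proteins of the striated muscle sarcomere, of the system that couples excitation to calcium release, and of muscle energy supply. They were chosen by name, through the gene identifiers of the count table, from 55359 genes in all, and 33 of the 36 passed the filter on low counts and were tested. The table holds 16 poly(A) RNA-seq libraries of mouse periodontal ligament, the connective tissue between tooth root and jaw bone, in 4 groups of 4 libraries. All mice were 9-week-old wild-type C57BL/6J males. Control mice had no treatment, ligature mice carried a silk thread around an upper left molar, which induces periodontitis, trauma mice had composite resin added to the chewing surface of the same tooth, and ligature plus trauma mice received both. The time between placement and sampling, and whether a library holds tissue of 1 mouse or several, are stated in neither labels nor files, so the p-values reflect library-to-library spread, part of which may be technical. Nothing in a count table gives the position of those fibres, so the genes are called striated muscle genes here.

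A sarcomere is built of thick filaments of myosin and thin filaments of actin with tropomyosin and troponin, anchored at the Z-disc and held in register by titin and nebulin. Depolarisation of the fibre membrane is sensed by a voltage-gated calcium channel, which opens the ryanodine receptor, and calcium released from the sarcoplasmic reticulum binds troponin C and is pumped back afterwards. Fast and slow fibres use different genes for many of these parts, and embryonic and perinatal myosins mark developing or regenerating fibres, so the makeup of a muscle can be read from its isoforms. Periodontal ligament has no striated muscle of its own, while muscles of mastication and of the cheek lie near the molars. In bulk tissue, fewer muscle cells and less RNA per cell cannot be told apart.

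Many of these genes shared letters just upstream of their starts. RefSeq promoters (build GRCm38.p6) matched 30 of the 36 members by symbol, with 36 annotated starts between them. Among the 250 bases upstream of each start, the E-box CAGCTG, whose reverse complement is itself and which binds myogenic helix-loop-helix factors, was found in 17 of 36 (47.2%), against 4271 of 32851 mouse promoters. A MEF2 site was found on either strand in 6 (16.7% against 2.92%), and a CArG box, the serum response factor motif, in 3 (8.33% against 1.47%). The 17 promoters with an E-box belonged to 15 genes, since overlapping windows of Mb, and of Tnni1, held the same E-box. A match is a description of letters and not of binding. The promoters of the skeletal actin gene Acta1 (chr8:123894776-123895025, minus strand), the muscle creatine kinase gene Ckm (chr7:19410844-19411093, plus strand) and the neighbouring fast myosin heavy chain genes Myh1 (chr11:67199852-67200101, plus strand) and Myh4 (chr11:67237562-67237811, plus strand) are shown because the values below return to these 4 genes, Acta1 and Ckm in the comparison of groups and Myh1 and Myh4 in the fibre makeup. Each runs 5′ to 3′ in the direction of the gene and ends at the base before the start, with the motifs in capitals (E-box CAGCTG, MEF2 site, CArG box).
Acta1: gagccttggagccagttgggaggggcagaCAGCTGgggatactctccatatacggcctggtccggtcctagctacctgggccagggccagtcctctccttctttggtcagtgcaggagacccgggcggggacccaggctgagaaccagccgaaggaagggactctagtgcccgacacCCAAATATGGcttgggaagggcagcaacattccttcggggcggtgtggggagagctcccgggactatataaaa
Ckm: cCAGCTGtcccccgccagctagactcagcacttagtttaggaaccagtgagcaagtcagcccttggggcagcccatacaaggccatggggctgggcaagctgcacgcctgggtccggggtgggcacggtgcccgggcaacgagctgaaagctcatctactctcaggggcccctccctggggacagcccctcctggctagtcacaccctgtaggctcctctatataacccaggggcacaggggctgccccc
Myh1: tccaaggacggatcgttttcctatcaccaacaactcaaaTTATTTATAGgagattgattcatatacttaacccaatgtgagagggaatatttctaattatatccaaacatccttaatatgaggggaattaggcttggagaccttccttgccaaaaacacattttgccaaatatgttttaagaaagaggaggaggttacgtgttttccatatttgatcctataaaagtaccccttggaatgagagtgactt
Myh4: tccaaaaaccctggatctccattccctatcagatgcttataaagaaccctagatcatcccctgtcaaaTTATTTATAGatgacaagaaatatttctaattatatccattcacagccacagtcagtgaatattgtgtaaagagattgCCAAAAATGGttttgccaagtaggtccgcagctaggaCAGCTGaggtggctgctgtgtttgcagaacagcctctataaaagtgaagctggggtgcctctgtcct
Acta1 held an E-box and a CArG box, Ckm an E-box, Myh1 a MEF2 site, and Myh4 all 3 motifs. The Myh1 and Myh4 windows held the same MEF2 letters.

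Total counts ranged from 58458102 to 77468584 a library. Levels are given as CPM, counts scaled to library size with the trimmed mean of M-values. The tissue label held for the ligament: Postn, a matrix protein of the ligament, was between 6008 and 31406 CPM, and the tendon and ligament genes Tnmd and Scx were detected in all 16 libraries. Summed oral epithelium markers ranged from 713 to 27555 CPM. Counts of 3 libraries, ligature 2 and ligature plus trauma 2 and 3, were shifted to short transcripts. The rank correlation across genes between a gene's deviation from its mean over libraries and its transcript length was -0.428, -0.342 and -0.361 in these, against -0.171 to 0.319 in the other 13. Genes are not independent replicates, and the values are a description.

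The amount of muscle RNA differed widely between libraries of the same group. The 36 members took 0.0168%, 0.0118%, 0.0520% and 0.00904% of counts in control 1 to 4 and 0.0162%, 0.188%, 0.0493% and 0.0114% in ligature 1 to 4. They took 0.0158%, 0.0156%, 0.0300% and 0.0176% in trauma 1 to 4 and 0.0277%, 0.0374%, 0.0164% and 0.0219% in ligature plus trauma 1 to 4. Ligature 2 held the most (exact Clopper-Pearson 95% interval 0.187% to 0.189%, which covers counting error only), and control 3 and ligature 3 came next. Most of the share in the poorer libraries was Tpm2, a tropomyosin that non-muscle and smooth muscle cells also make. Without Tpm2 the shares ran from 0.00175% in control 2 to 0.145% in ligature 2.

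The 14 fast fibre members showed the difference most clearly. Their summed level was 24.0, 5.83, 324 and 18.9 CPM in control 1 to 4, and 4.21, 1324, 214 and 5.72 CPM in ligature 1 to 4. It was 7.68, 5.38, 11.6 and 6.81 CPM in trauma 1 to 4, and 72.1, 159, 9.27 and 94.9 CPM in ligature plus trauma 1 to 4. The highest library exceeded the lowest of its group 55.5-fold in control, 315-fold in ligature, 17.2-fold in ligature plus trauma and 2.16-fold in trauma. All 4 trauma libraries were low, while each of the other groups held libraries at the trauma level or near it beside libraries far above it. The summed level of the 8 slow members stayed between 3.20 and 13.3 CPM in all 16 libraries, and was highest in ligature 2 (13.3 CPM) and ligature 3 (10.4 CPM).

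**Figure D1:**
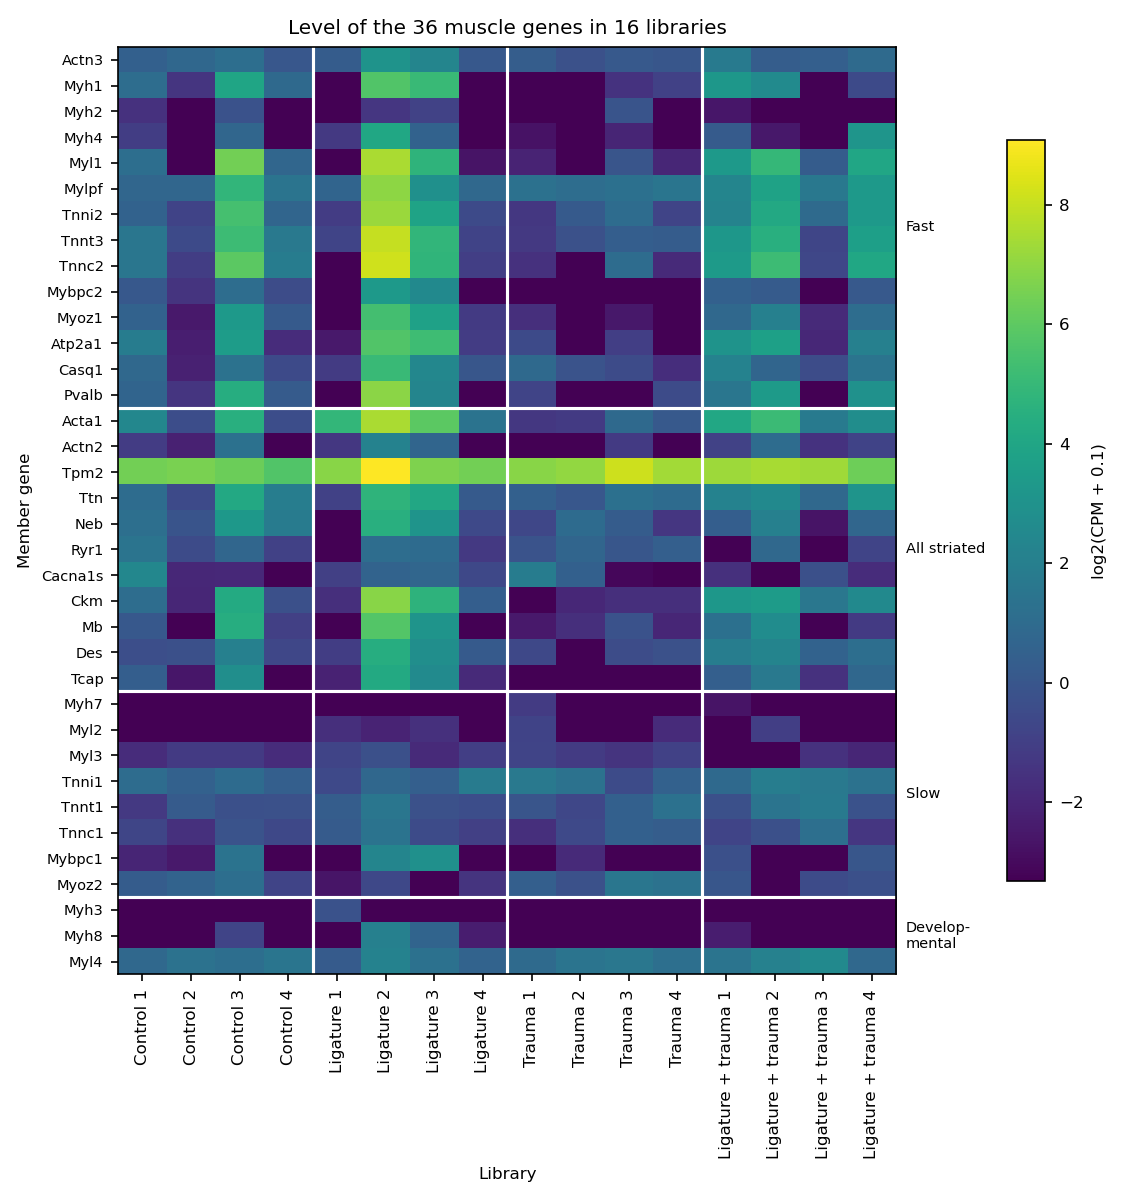
Level of each of the 36 members (rows, ordered by fibre class) in each of the 16 libraries (columns, 4 groups separated by white lines), as log2(CPM + 0.1). Ligature 2 is the highest column for 13 of 14 fast members and 9 of 11 members of all striated fibres. Ligature 2, ligature 3 and control 3, where the fast sum was 1324, 214 and 324 CPM, are together the 3 highest columns for 4 and 5 of these. In the slow and developmental rows these 3 columns stand out together only for Mybpc1 and Myh8. Ligature 2 is also the highest column for Myl3 and Tnnc1, and next to highest for Tnnt1 and Myl4.

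Ligature 2 was the highest library for 25 of the 36 members, among them 13 of 14 fast members, 9 of 11 members of all striated fibres, 2 of 8 slow members and 1 of 3 developmental members. Of the 33 tested members 24 (72.7%) were highest there, against 16.2% of all 20953 genes tested. Control 3, ligature 2 and ligature 3 were the 3 highest libraries for 11 of the 36 members. They were so for 10 of the 33 tested (30.3%), against 0.143% of all genes tested (30 genes). These libraries were picked from the members' own summed counts, so both contrasts with all genes are a description and no test. The number of members listed at 0 in a library ranged from 2 in ligature 2 to 16 in trauma 2. The labels and files do not state how reads were counted, and whether a listed 0 could be a missed estimate was not tested.

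Myosin heavy chain, the motor of the thick filament, was mainly of the fast types wherever it was well covered. Myh1, the fast IIx chain, was at 2.09, 0.272, 15.5 and 1.78 CPM in control, 0, 51.6, 34.3 and 0 CPM in ligature, 0, 0, 0.249 and 0.434 CPM in trauma, and 9.32, 6.04, 0 and 0.599 CPM in ligature plus trauma. Myh4, the fast IIb chain, was at 0.375, 0, 1.63 and 0 CPM in control, 0.315, 16.8, 1.40 and 0 CPM in ligature, 0.0537, 0, 0.142 and 0 CPM in trauma, and 1.08, 0.0746, 0 and 8.87 CPM in ligature plus trauma. Myh2, the IIa chain of fast oxidative fibres, did not exceed 0.836 CPM in any library.

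In all, 8 libraries held at least 100 myosin heavy chain counts, and in 7 of them Myh1 was the main chain. Per kilobase of transcript, Myh1 made up 77.1% of the 6 chains in control 1, 84.3% in control 3 and 100% in control 4, which rested on 127 counts. It made up 70.8% in ligature 2, 91.1% in ligature 3, 87.7% in ligature plus trauma 1 and 98.8% in ligature plus trauma 2. Ligature plus trauma 4 was the exception, with 93.7% Myh4 and 6.26% Myh1 over 617 counts (exact Clopper-Pearson 95% interval of the Myh4 count share 91.5% to 95.5%). The interval of the Myh4 count share in ligature 2, the library with the next highest share, was 21.7% to 24.5%. None of the 4 trauma libraries reached 100 myosin counts. These chains are near-identical over long stretches, so reads may have been split among them, and the shares are uncertain to that degree.

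**Figure D2:**
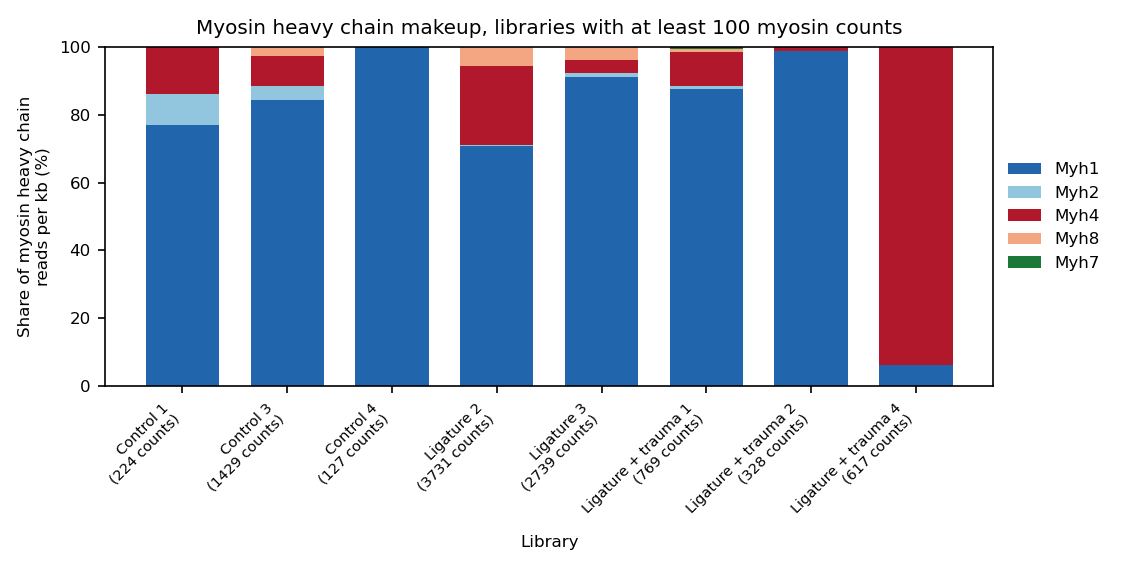
Share of each myosin heavy chain in the summed myosin reads per kilobase of transcript (y axis, %), in the 8 libraries with at least 100 myosin counts (x axis, counts in brackets). Myh1 makes up 70.8% or more in 7 libraries, and Myh4 makes up 93.7% in ligature plus trauma 4.

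Slow and embryonic myosins were nearly absent, and the perinatal chain was a minor part of the myosin where this was well covered. Myh7, the slow and cardiac chain, was listed at 0 in 14 libraries and reached 0.349 CPM in trauma 1 and 0.0552 CPM in ligature plus trauma 1. Ligature 2 had 0 of 3731 myosin counts from Myh7, with an upper 95% limit of 0.0988%. Myh3, the embryonic chain, was listed above 0 only in ligature 1, at 0.772 CPM, a library with no Myh1. Myh8, the perinatal chain, reached 4.10 CPM in ligature 2, 1.51 CPM in ligature 3 and 0.489 CPM in control 3, was 0.0966 CPM in each of ligature 4 and ligature plus trauma 1, and was listed at 0 in the other 11. Its highest levels were in the 3 libraries richest in fast members. Per kilobase, Myh8 made up 5.56% of the 6 chains in ligature 2 and 2.63% in control 3. In ligature 3 it made up 3.97%, beside 3.76% for Myh4 and 1.17% for Myh2. Myh7, Myh3 and Myh8 did not pass the filter and were not tested.

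The myosin light chains and binding proteins followed the same split by fibre type. Myl1, a fast essential light chain, was at 86.4 CPM in control 3 and at most 2.11 CPM in the other control libraries, 0, 179, 27.0 and 0.0552 CPM in ligature, at most 0.854 CPM in trauma, and 10.1, 30.6, 1.10 and 16.2 CPM in ligature plus trauma. Mylpf, the fast regulatory light chain, was at 1.61, 1.61, 28.4 and 2.65 CPM in control and at 1.48, 126, 7.49 and 1.71 CPM in ligature. It was at 2.34, 2.04, 2.29 and 2.70 CPM in trauma and at 4.83, 13.9, 3.04 and 10.04 CPM in ligature plus trauma, so every library held some. Mybpc2, the fast myosin-binding protein C, was listed at 0 in all 4 trauma libraries and lay between 0.259 and 2.03 CPM in control. The slow counterpart Mybpc1 did not follow the other slow genes, with 7.36 CPM in ligature 3, 4.86 CPM in ligature 2 and 2.52 CPM in control 3. Myl2 and Myl3, slow and ventricular light chains, stayed at or under 0.470 and 0.703 CPM. Per kilobase, the share of Mylpf in its pair with Myl2 ran from 88.6% to 100% in ligature and from 85.2% to 100% in trauma. That of Myl1 with Myl3 ran from 0% to 99.5% in ligature and from 0% to 73.5% in trauma. Myl1 had 0 and 4 counts in ligature 1 and 4, and 10, 0, 48 and 11 counts in trauma 1 to 4. Myl2 did not exceed 35 counts in any library, so the low ends of both ranges rested on few reads of Myl1 or Myl2. Myl4, the embryonic and atrial light chain, was present in every library at 1.07 to 5.72 CPM.

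On the thin filament, the fast troponins were highest in ligature 2, and of the slow troponins only Tnnc1 was. Tnnc2, the fast calcium-binding subunit, was at 2.82, 0.381, 62.9 and 3.61 CPM in control, 0, 288, 27.6 and 0.387 CPM in ligature, 0.242, 0, 1.96 and 0.176 CPM in trauma, and 10.8, 36.6, 0.533 and 16.6 CPM in ligature plus trauma. Tnnt3, the fast tropomyosin-binding subunit, ranged from 0.456 to 250 CPM in ligature and from 0.322 to 1.21 CPM in trauma. Tnni2, the fast inhibitory subunit, reached 146 CPM in ligature 2 and 42.5 CPM in control 3 and did not exceed 2.01 CPM in trauma. The slow subunits Tnni1, Tnnt1 and Tnnc1 lay between 0.215 and 3.73 CPM across all 16 libraries. Tnnc1 had its highest level, 2.56 CPM, in ligature 2, beside 2.19 CPM in ligature plus trauma 3. Tnnt1 was at 2.85 CPM in ligature 2, below 3.39 CPM in ligature plus trauma 3 and beside 2.67 CPM in ligature plus trauma 2. In control 3 and ligature 3, Tnnc1 was at 0.798 and 0.605 CPM and Tnnt1 at 0.708 and 0.742 CPM. Per kilobase, the share of Tnnc2 in its pair with Tnnc1 ran from 0% to 99.1% in ligature and from 0% to 60.5% in trauma. The trauma shares rested on few reads, with 18, 0, 110 and 13 counts of Tnnc2 in trauma 1 to 4. The share of Tnni2 in its pair with Tnni1 ran from 19.9% to 99.3% in ligature and from 12.7% to 83.3% in trauma, and that of Tnnt3 with Tnnt1 from 29.1% to 98.9% and from 26.9% to 58.3%, so the ranges of these groups overlapped for all 3 pairs.

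Acta1, skeletal actin, was at 5.18, 0.667, 22.5 and 0.674 CPM in control, 29.96, 180, 62.8 and 2.53 CPM in ligature, 0.309, 0.335, 1.78 and 1.02 CPM in trauma, and 17.3, 35.5, 3.35 and 6.69 CPM in ligature plus trauma. It departed from the fast genes in ligature 1, where it was at 29.96 CPM while Tnnc2, Myl1, Myh1, Mb and Pvalb were listed at 0. Acta2, the smooth muscle actin, was at 13.2 to 29.6 CPM in control and 65.9 to 449 CPM in ligature, and passed the test (log2 fold change 3.10 ± 0.49 SE, edgeR adjusted p 0.00123). Of the 10 smooth muscle and pericyte genes tested, Acta2 was the 1 called higher in ligature, and 1 was called lower. Over all genes 10.7% were called there. The part of Acta2 in the Acta1 values, through near-identical sequence, was not tested. Tpm2 was detected at a high level in every library, at 52.8 to 96.4 CPM in control, 85.9 to 542 CPM in ligature, 117 to 283 CPM in trauma and 80.0 to 177 CPM in ligature plus trauma. Neb, the giant ruler of the thin filament, was at 22.4 CPM in ligature 2, 9.59 CPM in control 3 and 8.48 CPM in ligature 3, and at most 4.19 CPM elsewhere.

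Among Z-disc and scaffold proteins, titin (Ttn), the molecular spring, was at 2.02, 0.599, 18.0 and 3.69 CPM in control, 0.426, 26.8, 17.5 and 1.04 CPM in ligature, 1.29, 0.926, 2.28 and 1.90 CPM in trauma, and 4.49, 5.76, 1.72 and 8.32 CPM in ligature plus trauma. The intermediate filament desmin (Des) was at 0.701, 0.708, 4.09 and 0.520 CPM in control, 0.378, 20.9, 6.85 and 1.04 CPM in ligature, 0.537, 0, 0.640 and 0.746 CPM in trauma, and 3.68, 4.73, 1.38 and 2.15 CPM in ligature plus trauma. Tcap, the titin cap, was listed at 0 in all 4 trauma libraries and in control 4, and reached 18.3 CPM in ligature 2. The fast Z-disc genes Actn3 and Myoz1 differed in spread: Actn3 was at 0.735 to 8.22 CPM in all 16 libraries, while Myoz1 ran from 0 to 41.0 CPM. Actn2, the alpha-actinin of all fibres, did not exceed 4.49 CPM, and the slow calsarcin Myoz2 ran from 0 to 2.79 CPM with its highest value in trauma 3.

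The excitation and calcium genes did not all follow the fast members closely. Atp2a1, the fast calcium pump, was at 3.61, 0.109, 11.4 and 0.197 CPM in control, 0.0788, 52.0, 38.0 and 0.359 CPM in ligature, 0.591, 0, 0.391 and 0 CPM in trauma, and 8.23, 13.3, 0.158 and 4.13 CPM in ligature plus trauma. The calcium-binding proteins Casq1 and Pvalb also had their highest levels in ligature 2, at 33.6 and 121 CPM. Ryr1, the calcium release channel, was highest in control 1, at 2.63 CPM, and lay between 0 and 2.09 CPM in the other 15 libraries. Ligature 2 and ligature 3 came next, at 2.09 and 1.95 CPM, and control 3 was at 1.60 CPM, so Ryr1 shared part of the pattern of Atp2a1. Cacna1s, the voltage sensor, was also highest in control 1, at 5.22 CPM, followed by 3.63 CPM in trauma 1, and was at 0.167 CPM in control 3. The energy genes Ckm and myoglobin (Mb) were highest in ligature 2, as Atp2a1 was. Ckm was at 2.08, 0.150, 19.0 and 0.716 CPM in control, 0.221, 118, 25.4 and 1.21 CPM in ligature, 0, 0.160, 0.213 and 0.217 CPM in trauma, and 9.50, 11.2, 2.96 and 5.73 CPM in ligature plus trauma.

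**Figure D3:**
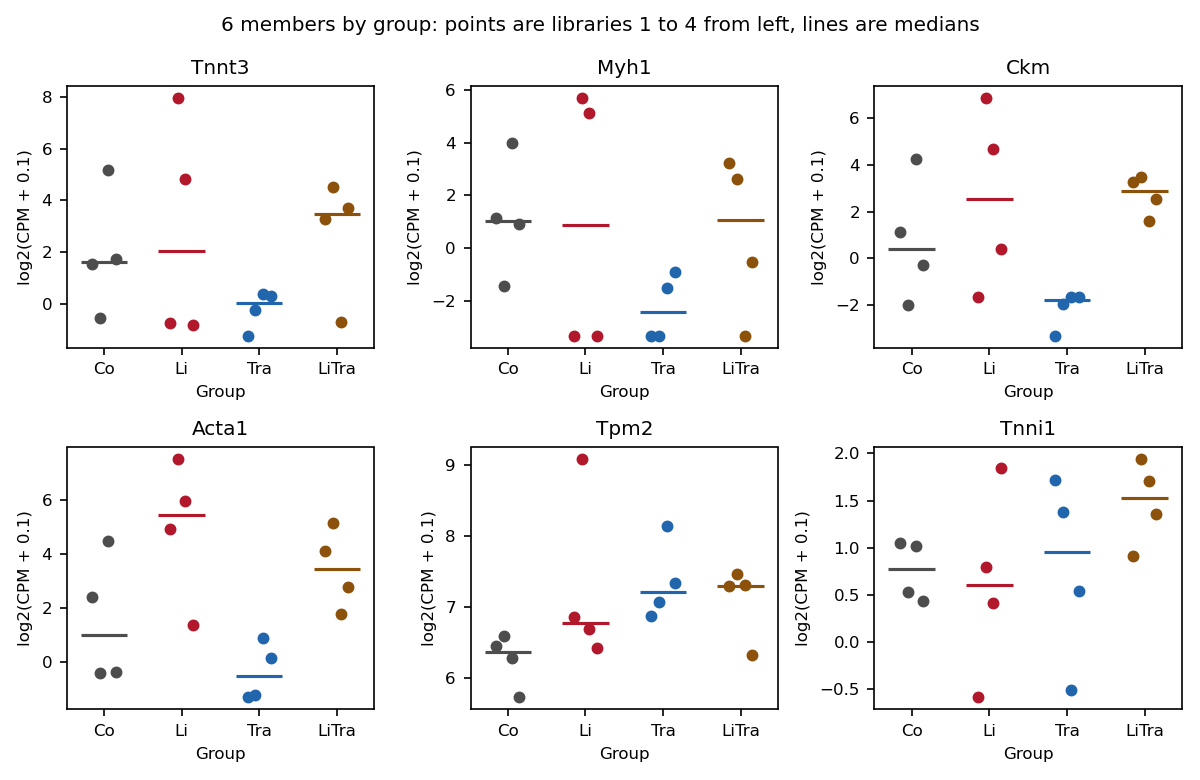
Levels of 6 members, as log2(CPM + 0.1), by group (Co is untreated, Li carried the thread, Tra the resin, LiTra both). Points are the 4 libraries, in the order of their numbers from left to right, and lines are group medians. Ckm and Acta1 are higher in all 4 ligature plus trauma libraries than in all 4 trauma libraries, and Tpm2 is higher in all 4 trauma libraries (117 to 283 CPM) than in all 4 control libraries (52.8 to 96.4 CPM).

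Ligature 2 and ligature 3 differed in muscle level by an amount that went with transcript length. The ratio of the level in ligature 2 to that in ligature 3, for the 30 members with at least 30 counts in both, had a median of 5.30 for 14 members with transcripts under 1500 bases, 2.86 for 9 members of 1500 to 5000 bases and 1.53 for 7 members over 5000 bases. The ranges overlapped, from 1.33 to 24.4, 0.661 to 6.41 and 0.883 to 11.98. Pvalb had the highest ratio, and Myh4 stood above the other long genes at 11.98, beside 1.51 for Myh1. Ligature 2 was among the libraries shifted to short transcripts, and the part of this shift in the ratios was not tested.

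**Figure D4:**
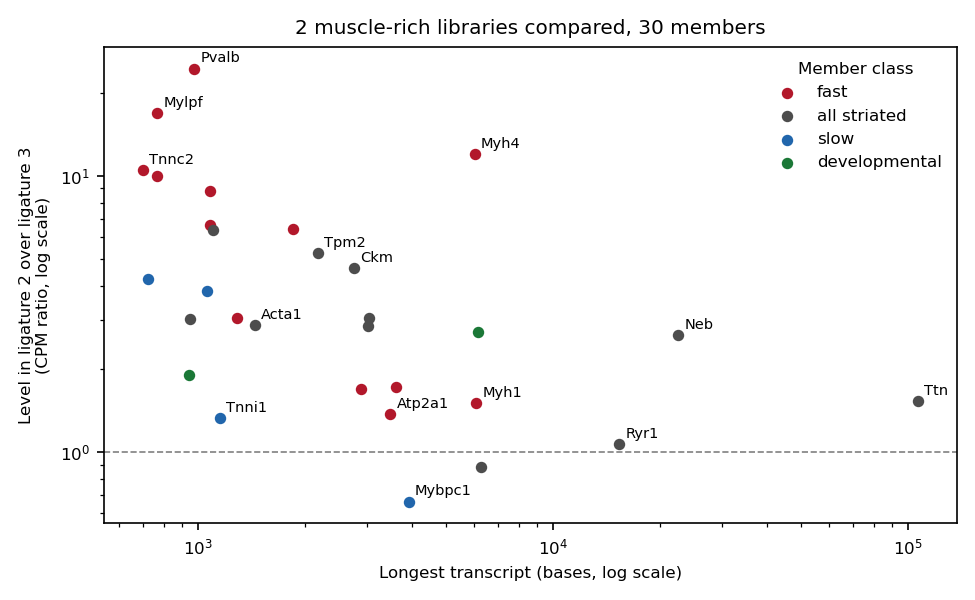
Ratio of each member's CPM in ligature 2 to that in ligature 3 (y axis, log scale) against the length of its longest transcript (x axis, bases, log scale), for 30 members coloured by fibre class; the dashed line marks a ratio of 1. Short transcripts such as Pvalb and Mylpf lie highest, with a median of 5.30 under 1500 bases, and Ttn and Ryr1 lie near the line.

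The first comparison asked whether members differed between ligature and control. None of the 33 tested members passed (edgeR quasi-likelihood test, adjusted p under 0.05 over 20953 genes), where 10.7% of all genes did. At an unadjusted p under 0.05 there were 6 members, 5 higher and 1 lower (18.2%, against 27.0% of all genes), and DESeq2 called 2 (Acta1 and Casq1) and limma-voom 1 (Myoz2, lower in ligature). Values were above 0 for 29 members and below 0 for 4, with a median of 1.61 on the log2 scale against -0.05 over all genes, but the median was 0.10 without ligature 2, 3.60 without control 3 and -0.16 by limma-voom with sample weights. No member's groups were apart, where 9.97% of all genes were higher and 9.15% lower without overlap. The lowest adjusted p was 0.0828, for Tpm2 (log2 fold change 1.43 ± 0.51 SE).

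Among the main members of each role, Acta1 differed by 3.25 ± 1.22 (SE, log2, adjusted p 0.0976) between ligature and control, with a 95% interval of 0.60 to 5.90. Without control 3 its adjusted p was 0.0359. Ckm differed by 2.72 ± 1.45 (adjusted p 0.244), Des by 2.27 ± 1.12 (adjusted p 0.206) and Atp2a1 by 2.56 ± 1.70 (adjusted p 0.356). For Myh4 the value was 3.20 ± 2.03 (adjusted p 0.330), and it was 0.16 without ligature 2. For Ttn it was 0.91 ± 1.04 (adjusted p 0.617). Without ligature 2 the values were 2.101 for Acta1, 0.68 for Ckm, 0.85 for Des, 1.71 for Atp2a1 and 0.04 for Ttn. Without control 3 they were 4.98, 5.19, 3.50, 4.10 and 2.44, and 5.17 for Myh4. Myh2 and Ryr1 had values of -0.45 ± 2.16 (adjusted p 0.921) and -0.27 ± 1.37 (adjusted p 0.924), which turned to 1.16 without control 3 and to 0.31 without control 1. Standard errors of the members had a median of 1.52, against 0.43 over all genes. Myl2, listed at 0 in all control libraries, had 14, 7, 17 and 0 counts in ligature 1 to 4 (edgeR adjusted p 0.131). Its ligature mean was at least 3.74-fold higher against a floor of 3 counts a library, and ligature 4 equalled the control libraries.

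Trauma was set against control in the same model, with the same control libraries. None of the 33 members passed, where 1 gene of all (0.00477%) did. At an unadjusted p under 0.05 there were 13 members, 2 higher and 11 lower (39.4%, against 6.92% of all genes), DESeq2 called 2 (Mybpc2 and Tcap, both lower in trauma) and limma-voom called 0. Values were below 0 for 25 members and above 0 for 8, with a median of -2.07 against 0.01 over all genes. Without control 3, the richest control library, the median was -0.54, and without trauma 3 it was -3.56. The ranges of the groups did not overlap for Mybpc2, lower in trauma, or Tpm2, higher in trauma, which is 1 member in each direction beside 3.28% and 3.65% of all genes.

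Trauma libraries listed Mybpc2 and Tcap at 0, so their folds are lower bounds from a floor of 3 counts a library: Mybpc2 was at least 21.3-fold lower and Tcap at least 44.2-fold lower than the control mean. Most of that control mean was control 3, at 2.03 and 6.79 CPM. Tcap was also listed at 0 in control 4, and the edgeR adjusted p was 0.599 for Mybpc2 and 0.547 for Tcap. Ckm had a value of -5.22 ± 1.72 (SE, log2, adjusted p 0.628), Atp2a1 of -3.96 ± 1.87 (adjusted p 0.721) and Acta1 of -3.08 ± 1.23 (adjusted p 0.677). For Myh4 it was -3.36 ± 2.204 (adjusted p 0.779), for Ttn -1.92 ± 1.07 (adjusted p 0.761) and for Des -1.64 ± 1.12 (adjusted p 0.782). Myh2 and Ryr1 were at -0.27 ± 2.16 (adjusted p 0.986) and -0.22 ± 1.37 (adjusted p 0.980). Without control 3 the values were -2.74 for Ckm, -2.41 for Atp2a1, -1.35 for Acta1, -1.39 for Myh4, -0.40 for Ttn, -0.42 for Des and 1.34 for Myh2, and Ryr1 was at 0.36 without control 1. Without trauma 3 Myh2 was at -7.10. Tpm2 had a value of 1.15 ± 0.51 (adjusted p 0.704), against the direction of most members. The oral epithelium markers, summed, were at 4120 to 27555 CPM in trauma and 1282 to 11570 CPM in control, and their part in the muscle values was not tested.

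Ligature plus trauma was also set against trauma alone, where most members had values above 0 and none passed the threshold. Of the 33 members 0 passed, against 5.48% of all genes, while 12 were higher and 0 lower at an unadjusted p under 0.05 (36.4%, against 19.4% of all genes). DESeq2 called 4 (Acta1, Mybpc2, Ckm and Tcap), limma-voom 0, and edgeR on these 2 groups alone 6 (Acta1, Myl1, Tnni2, Tnnt3, Ckm and Tcap). In all, 6 members (Acta1, Ckm, Myl1, Tcap, Mylpf and Des) were higher in all 4 ligature plus trauma libraries than in all 4 trauma libraries, where 5.74% of all genes were. Myl3 was lower in all 4, where 7.31% of all genes were.

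Acta1 was higher by 4.197 ± 1.29 (SE, log2, edgeR adjusted p 0.0724) in ligature plus trauma than in trauma, with a 95% interval of 1.38 to 7.01, and Ckm by 5.64 ± 1.74 (adjusted p 0.0742). Over the 16 fits that left out 1 library, these values stayed between 3.41 and 4.82 for Acta1 and between 5.21 and 5.92 for Ckm. The adjusted p of Acta1 was 0.0477 without control 3 and 0.0480 without ligature 4. That of Ckm was 0.0468, 0.0458 and 0.0485 without control 3, ligature 1 and ligature 2. These libraries belong to neither group compared. Each such fit repeated the filter, the scaling, the shared estimate of spread and the adjustment, and which of these moved the adjusted p was not tested. Tcap was at least 34.6-fold and Mybpc2 at least 18.3-fold higher than the floor of 3 counts a library allows in trauma (edgeR adjusted p 0.0706 and 0.0877). Mybpc2 was also listed at 0 in ligature plus trauma 3. Atp2a1 had a value of 4.71 ± 1.92 (adjusted p 0.185), Des of 2.63 ± 1.15 (adjusted p 0.220) and Ttn of 1.67 ± 1.07 (adjusted p 0.433). Myh4 had a value of 5.68 ± 2.37 (adjusted p 0.195), and of 2.99 without ligature plus trauma 4. Myh2 and Ryr1 went the other way, at -3.38 ± 2.42 (adjusted p 0.496) and -1.05 ± 1.39 (adjusted p 0.753). Without trauma 3 Myh2 was at 3.43, without ligature plus trauma 1 it was at -6.83, and without ligature plus trauma 2 Ryr1 was at -2.75. The median over members was 2.63, against -0.02 over all genes, and ran from 1.60, without ligature plus trauma 2, to 2.87 as each library was left out.

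**Figure D5:**
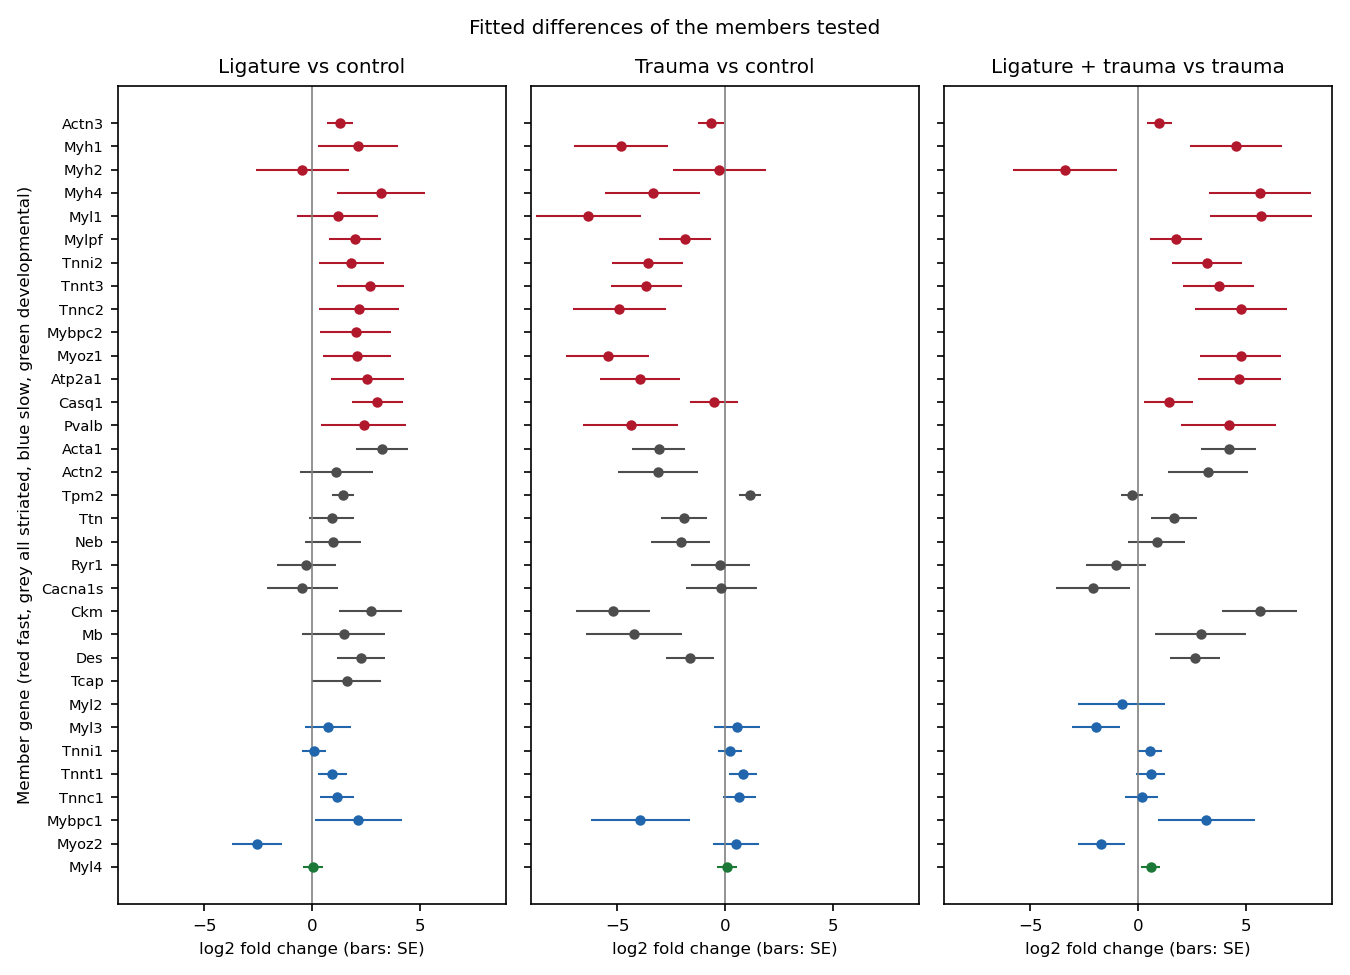
Fitted log2 fold change (points, x axis) with its standard error (bars) for the tested members in ligature against control, trauma against control and ligature plus trauma against trauma; the last 2 share the trauma libraries and the first 2 the control libraries. Members with all libraries of a group at 0 (Myl2, Mybpc2 and Tcap, where this applies) are left out of that panel. Fast members lie mostly to the left in trauma against control and to the right in the other panels. The slow troponins Tnni1, Tnnt1 and Tnnc1 lie within 1.16 units of 0, but other slow members lie further out. In the order of the panels, Mybpc1 is at 2.15, -3.94 and 3.16, Myoz2 at -2.56, 0.49 and -1.70, and Myl3 at 0.73, 0.54 and -1.97.

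The remaining comparisons gave no member past the threshold. Between ligature plus trauma and control 0 of 33 passed, where 12.5% of all genes did, 1 member had an unadjusted p under 0.05 (3.03%, against 30.8% of all genes), and DESeq2 and limma-voom called 0. No member's groups were apart there, where 10.8% of all genes were higher and 10.4% lower. The median was -0.11, and its sign was not stable: it was 0.66 with the replicate number as a block, 0.73 by limma-voom and 1.53 without control 3. Between ligature plus trauma and ligature 0 passed, as for all genes (0%), 0 members had an unadjusted p under 0.05 where 3.5% of all genes did, and DESeq2 and limma-voom called 0 members. No member's groups were apart, where 0.663% of all genes were higher and 0.778% lower. Its median was -1.96 by edgeR and 0.93 by limma-voom with sample weights. The interaction, which asks whether ligature and trauma add up on the log scale, called 0 members and 0% of all genes by edgeR, with 3 members at an unadjusted p under 0.05 (9.09%, against 4.93% of all genes). DESeq2 called 1 (Mybpc2) and limma-voom 0.

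Other muscle genes, from lists of the same pathways, were also compared between ligature and control, where 10.7% of all genes were called. Of 19 Z-disc and M-band genes tested 1 was higher and 1 lower, of 17 excitation genes 1 was lower. Of 16 energy genes 1 was higher, of 10 junction genes 0 were called, and of 2 satellite cell and regeneration genes 1 was lower. Of the other Z-disc and M-band genes, Ankrd2, a stretch-responsive ankyrin repeat protein, was higher in ligature than in control (2.08 ± 0.54 SE, log2, edgeR adjusted p 0.0229), at 5.53 to 11.46 CPM against 0.375 to 3.17 CPM, and Cmya5 was lower (-2.05 ± 0.63, adjusted p 0.0479). Myot, a Z-disc protein, had 10.9 CPM in control 3, 14.9 CPM in ligature 2 and 9.56 CPM in ligature 3, as the fast members did, while Ldb3 and Myom1 did not exceed 4.55 and 5.84 CPM. Of the other excitation genes, sarcolipin (Sln), an inhibitor of the calcium pump, was lower in ligature (-4.76 ± 1.09, adjusted p 0.0124). It was at 0.544, 5.32, 11.0 and 5.03 CPM in control and at 0.536, 0, 0.206 and 0.0552 CPM in ligature, so it did not follow the fast members in ligature 2. Cacnb1 was at 1.31 to 3.69 CPM in all libraries, Cacng1 reached 11.9 CPM in ligature 2, and Stac3 was highest in control 1 at 4.41 CPM.

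Of the energy genes, Adssl1, a muscle adenylosuccinate synthase, was higher in ligature (2.67 ± 0.37, adjusted p 0.000556), at 37.0, 39.8, 24.1 and 31.1 CPM in the 4 ligature libraries against 2.57 to 6.28 CPM in control. Pygm, Eno3 and Pgam2, of glycogen and sugar breakdown, reached 16.8, 44.6 and 35.1 CPM in ligature 2. Of the junction genes, Chrna1 did not exceed 1.90 CPM, Chrnb1 was at 1.52 to 5.51 CPM, and Chrnd was listed at 0 throughout. Of the satellite cell and regeneration genes, Pax7 and Myod1 were listed at 0 in all 16 libraries and Myf5 did not exceed 0.217 CPM. Myf6, the myogenic factor of mature fibres, was at 2.19 CPM in ligature 2, 0.564 CPM in ligature 3, 0.296 CPM in control 3 and 0.0483 CPM in control 1, and listed at 0 in the other 12. Ncam1, which nerve and Schwann cells also make, was lower in ligature than in control (-1.002 ± 0.23, adjusted p 0.0137), and summed Schwann cell markers were at 261 to 382 CPM against 654 to 718 CPM. The part of the Schwann cell markers in the Ncam1 value was not tested. None of these lists had a call between trauma and control, where 0.00477% of all genes did.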

How the data were processed

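RNA-seq of 16 periodontal ligament libraries was analysed from the deposited table of whole-number counts per gene, made by the authors. Trimmomatic 0.39, FastQC 0.11.9, HISAT2 2.2.1, StringTie 2.1.7, DESeq2 1.32.0 and GRCm39 are named without roles, per the submitters' processing notes. The counting step and its strand setting are stated in neither labels nor files, so overlapping and antisense genes cannot be told apart. Of 55359 genes, 32711 had a count and 20953 passed edgeR's filter (minimum count 10). All 16 libraries entered a single quasi-likelihood model (edgeR 4.0.16, R 4.3.3) with 12 residual degrees of freedom, and 6 contrasts were adjusted by Benjamini-Hochberg over all genes tested at 0.05. Alternatives used DESeq2 1.42.0, limma 3.58.1, other scalings, filters and samples. Levels per kilobase used the longest transcript of an earlier GENCODE release. All 36 members are named. Full statistics were given for Acta1, Ttn, Myh4, Myh2, Myh7, Myh3, Ryr1, Atp2a1, Ckm and Des (Myh7 and Myh3 were not tested) in ligature against control, trauma against control and ligature plus trauma against trauma. Of the Z-disc and M-band, excitation, energy, junction and satellite cell lists the first 3 genes were named. Genes of these lists that passed in ligature against control, where 5 or fewer did, were named too, as was Myf6. Of the smooth muscle list only Acta2 was named, and the cardiac list was not described. The members and lists were chosen with earlier results of these data known. The tests were tested on simulated data.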

Additional observations from a re-analysis of the deposited data

Results flagged for a closer look

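In groups of 4 libraries, a library was set apart where its gap to the nearest other exceeded Dixon's 95% critical value. Of 129 groups of levels of the 33 tested members, leaving out groups with all libraries at 0, 12 had such a library. Chance gives about 1 in 20 for independent levels, which these are not, since members were high in the same libraries. In 5 of the 12 the other 3 libraries were at 0, so that any count set the library apart. In control 3, Mylpf (28.4 CPM) and Des (4.09 CPM) stood above the other controls. Tpm2 stood high in ligature 2 (542 CPM) and low in ligature plus trauma 4 (80.0 CPM). Actn2 (0.338 CPM) and Myh2 (0.836 CPM) were detected in trauma 3 alone of its group, Mybpc1 in trauma 2 alone (0.176 CPM), Myh2 in ligature plus trauma 1 alone (0.0690 CPM) and Myl2 in ligature plus trauma 2 alone (0.391 CPM). Des was listed at 0 in trauma 2, Mybpc2 at 0 in ligature plus trauma 3 and Myoz2 at 0 in ligature plus trauma 2, each below its group's other libraries.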

How the results depend on the processing

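Members called changed from 0 under some alternatives. DESeq2 called 2 for ligature and 2 for trauma (each against control), 4 for ligature plus trauma against trauma, and 1 in the interaction. The fit of the 2 groups alone called 6 in ligature plus trauma against trauma. With the length trend removed there were 1 in ligature against control and 2 in ligature plus trauma against trauma, and limma-voom called 1 in ligature against control. Other scaling, other filters, the replicate block and the fit of 13 libraries gave 0. Over fits that left out 1 library, member calls ran from 0 to 1 in ligature against control and from 0 to 2 in ligature plus trauma against trauma, and were 0 in the other 4. Over all genes, DESeq2 called 3698, 114, 4263, 31, 2096 and 51 in the order of the 5 pairwise contrasts (ligature, trauma and ligature plus trauma against control, ligature plus trauma against ligature and against trauma) and the interaction, where edgeR called 2234, 1, 2609, 0, 1149 and 0. The groups alone gave 1369 in ligature against control, and length removal 1903 in ligature plus trauma against trauma. Without the 3 libraries shifted to short transcripts there were 743 in ligature plus trauma against control, 403 against trauma and 2 in the interaction. Leave-one-out counts over all genes ran from 1430 to 2125, 0 to 3, 1022 to 4332, 0 to 0, 565 to 1525 and 0 to 2. The causes were not tested.

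Direction turned for Myh2, Ryr1 and Ttn, and for no other of the 8 tested genes given full statistics. In ligature against control, Myh2 was 1.11 with the replicate block and 0.0795 with the length trend removed, Ryr1 was 0.43 with the length trend removed, and Ttn was -0.29 by limma-voom. In trauma against control, Ryr1 was 0.34 by limma-voom and 0.0752 with the length trend removed, and Myh2 was 0.0015 with it removed. Leaving out 1 library, Myh2 ran from -1.36 to 1.16 and Ryr1 from -0.82 to 0.31 in ligature against control, from -7.10 to 1.34 and -0.52 to 0.36 in trauma against control, and Myh2 from -6.83 to 3.43 in ligature plus trauma against trauma. The members' median in ligature against control was -0.16 by limma-voom.

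Libraries of the same replicate number were weakly correlated: over 24 same-numbered pairs the correlation of deviations ran from -0.157 to 0.215, with 5 over 0.1. The median was 0.0207, against -0.0048 over 72 pairs with other numbers. Whether the numbers mark a pairing cannot be told from these values. The replicate block gave 0 member calls in all 6 contrasts. The block turned the members' median in ligature plus trauma against control to 0.66. The median SE over the 33 tested members was at least 1.46 (log2) in each of the 6 contrasts.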
